A study of Mus musculus with 3 samples.

Results

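Guanylate-binding proteins (GBPs) and immunity-related GTPases (IRGs) were examined through 10 genes, Gbp2, Gbp3, Gbp4, Gbp5, Gbp6, Gbp7, Gbp8, Gbp9, Igtp and Irgm1, out of 55536 annotated genes in the larger gene table of each library. The genes were taken by symbol, from a list made with earlier results of these data known. The libraries were 3 technical replicates of 1 biosample, polyA-selected RNA of activated regulatory T (Treg) cells from a male mouse of 9 weeks. Treg cells are CD4 cells that depend on the transcription factor Foxp3 and hold immune responses in check. The sources used here do not give the strain, the activating agent or the sort. There was 1 group, so the results are levels, comparisons between genes and the spread between libraries, and every SD (n = 3 libraries) and p-value measures technical spread only. In a bulk sample, fewer cells that express a gene and less RNA per cell cannot be told apart.

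GBPs and IRGs are interferon-inducible GTPases that assemble on the vacuoles of intracellular bacteria and parasites, or on the microbes themselves. GBPs are large enzymes related to the dynamins, and several carry a carboxy-terminal prenyl group that anchors them in membranes. IRGs fall into effectors and a few regulators of the Irgm kind, which sit on host membranes and hold the effectors back from them. In mice the genes are induced mainly by interferon gamma, and they lie in clusters of related copies.

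The libraries held 31445344, 32612609 and 37259281 expected counts, that is, read counts in which a read matching several genes is divided among them. Levels are given in TPM, a unit that corrects for gene length and sequencing depth. The Treg marker list (Foxp3, Il2ra, Ctla4, Ikzf2, Tnfrsf18 and Tnfrsf4) summed to 3054 ± 48.1 TPM and the T cell list to 6160 ± 21.7 TPM, with 6 of 6 genes of each detected. Macrophage and monocyte markers summed to 63.0, 61.1 and 62.4 TPM (6 of 8 genes detected), B cell markers to 36.7 to 50.9 TPM (4 of 5) and dendritic cell markers to 2.87 to 4.07 TPM (1 of 5). Haemoglobin genes varied more, at 885, 632 and 709 TPM, and granulocyte markers stood at 19.4, 0.660 and 2.08 TPM in libraries 1, 2 and 3 (0 of 4). No marker gene of these lists was at 0 counts in all 3 libraries. The part of other cells in the levels below was not tested.

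All 10 genes were expressed, and 9 of them stood in the top 10% of protein-coding genes or higher. Each reached at least 1 TPM in all 3 libraries, as did 10429 of all 22028 protein-coding genes (47.3%). Their summed level was 2173, 2155 and 2180 TPM in libraries 1, 2 and 3, a mean of 2169 ± 13.1 TPM, or 0.217% of all TPM and 0.371% of all counts. Their median was 168 TPM, against 29.2 TPM over all detected protein-coding genes, and all 10 lay above that value. The genes were therefore spread over a range of levels within the expressed part of the transcriptome, in the order that follows.

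**Figure D1:**
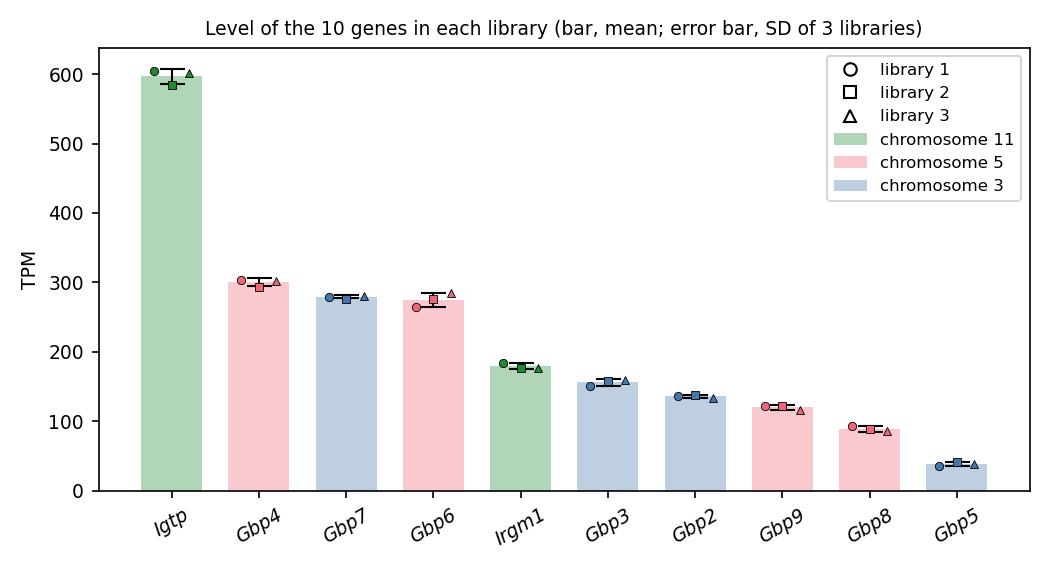
TPM (vertical axis, linear from 0) of each gene in libraries 1, 2 and 3 (points), with the mean (bar) and SD of 3 libraries (error bar), coloured by chromosome. Igtp stands at 597 TPM, Gbp4, Gbp7 and Gbp6 lie between 265 and 304 TPM in every library, and Gbp5 is lowest at 38.1 TPM.

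Among the IRG members, Igtp (also called Irgm3), a regulator of the Irgm kind, was the most abundant of the 10 genes. It had 604, 585 and 602 TPM in libraries 1, 2 and 3, a mean of 597 ± 10.6 TPM, and ranked at position 190 among protein-coding genes. Irgm1, the regulator tied in mice to autophagy and to survival of activated T cells, had 184, 177 and 177 TPM, a mean of 179 ± 4.15 TPM. Igtp was lowest in library 2 and Irgm1 highest in library 1, and the ranges of Igtp and Irgm1 were far from overlapping. Igtp lies on chromosome 11 from 58199556 to 58207591 on the plus strand of mm10 (ENSMUSG00000078853.8), and Irgm1 on the minus strand of the same chromosome from 48861968 to 48871683 (ENSMUSG00000046879.7).

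The chromosome 3 GBP genes ranged from 38.1 to 279 TPM. Gbp7 (142530342 to 142550149, plus strand, ENSMUSG00000040253.15), a GBP linked in mice to delivery of antimicrobial factors to bacteria, led them with 279, 276 and 281 TPM. Gbp3 (142560026 to 142573209, ENSMUSG00000028268.14) followed with 151, 158 and 160 TPM, and Gbp2 (142620602 to 142638008, ENSMUSG00000028270.12), a prenylated GBP that coats the vacuole of Toxoplasma, with 136, 138 and 134 TPM. The 3 values of each of these genes lay close together, and those of Gbp7 stood above those of Gbp3 and Gbp2 in every library. Gbp5 (142493978 to 142522344, ENSMUSG00000105504.4), a prenylated GBP that promotes inflammasome assembly, was lowest of all 10 with 35.1, 41.1 and 38.1 TPM. Its lowest value was in library 1.

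The chromosome 5 GBP genes ranged from 88.7 to 300 TPM. Gbp4 (105115767 to 105139586, minus strand, ENSMUSG00000079363.7) had 304, 293 and 302 TPM, and Gbp6 (105270702 to 105293698, minus strand, ENSMUSG00000104713.4) 265, 276 and 285 TPM. Gbp9 (105077630 to 105139539, minus strand, ENSMUSG00000029298.15) had 122, 122 and 116 TPM and Gbp8 (105014150 to 105139540, minus strand, ENSMUSG00000034438.16) 92.6, 88.2 and 85.2 TPM. Gbp4 and Gbp6 thus stood above Gbp9 and Gbp8 in every library. Gbp6 was lowest in library 1, and Gbp8 was highest there.

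Between neighbours in the order of levels, 8 of 9 differences were larger than the spread, taken as log2 ratios of 1 sign in all 3 libraries with a mean over 2 SD. Igtp exceeded Gbp4 by 0.99 ± 0.00 log2 units (1.99-fold), with 0.99, 0.99 and 1.00 in libraries 1, 2 and 3. At the other end, Gbp8 exceeded Gbp5 by 1.22 ± 0.16 (2.33-fold), with 1.40, 1.10 and 1.16. These were the widest steps in the order, and the ranges did not overlap in either. Gbp6 exceeded Irgm1 by 0.62 ± 0.08 and Gbp9 exceeded Gbp8 by 0.44 ± 0.04, whereas Gbp4 over Gbp7, Irgm1 over Gbp3, Gbp3 over Gbp2 and Gbp2 over Gbp9 gave 0.11 to 0.20. Gbp7 and Gbp6 did not differ beyond their spread, with log2 ratios of 0.07, 0.00 and -0.02 (0.02 ± 0.05). All 8 of these pairs gave p = 0.25 in an exact two-sided sign-flip test, which is the smallest value that 3 libraries allow.

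The order depended on how the level was measured. With no length correction (CPM, counts scaled to the library total), Igtp still led at 727 ± 7.47 CPM over Gbp4 at 632 ± 20.3 CPM, but Gbp9, at 286 ± 7.38 CPM, moved above Gbp3 (256), Irgm1 (238) and Gbp2 (210). With only transcripts annotated as protein-coding, Gbp4 ranked 7 at 113 ± 1.96 TPM and Gbp6 ranked 5 at 151 ± 5.62 TPM, while Igtp stayed first at 597 and Gbp7 became second at 279 TPM. A second, smaller gene table made with another annotation release held 8 of the 10 genes, without Gbp5 and Gbp6. In it Gbp7 came first at 370 ± 11.4 CPM and Gbp3 second at 321 ± 6.90 CPM, and Igtp ranked 5 at 263 ± 12.1 CPM. That table levels off where genes are abundant and is sparse for some that share reads: Igtp had 2376, 2374 and 2381 counts there, against 22716, 23510 and 27367 rounded expected counts.

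**Figure D2:**
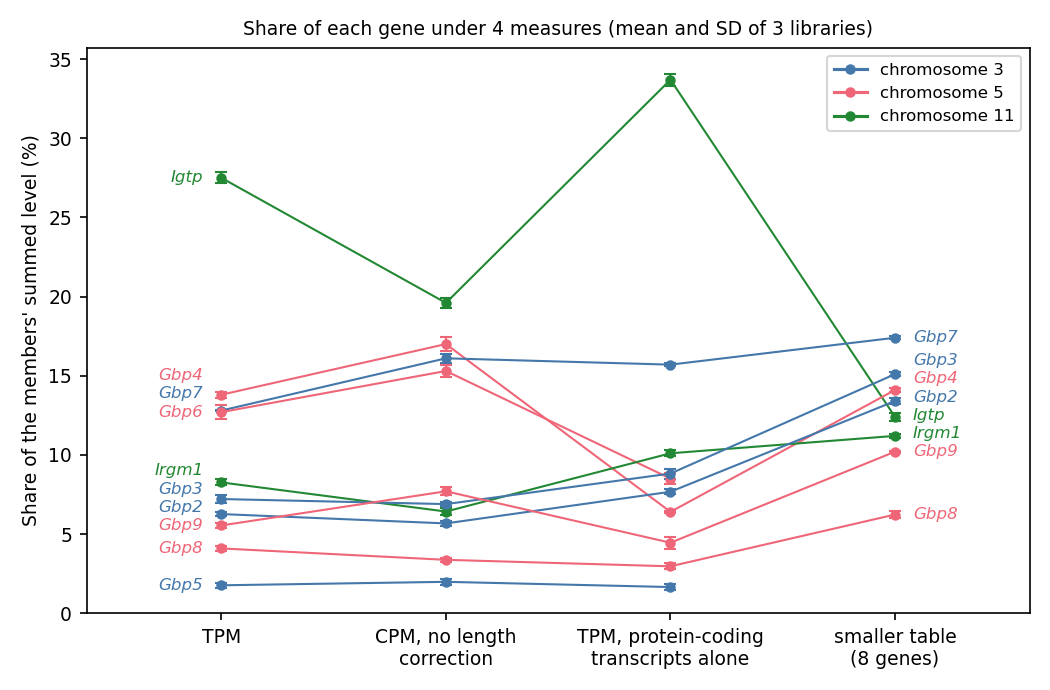
Share of each gene in the members' summed level (vertical axis, %, mean and SD of 3 libraries) under the 4 measures named on the horizontal axis. Igtp takes 27.5% by TPM, 19.6% by CPM, 33.7% by protein-coding transcripts alone and 12.4% in the smaller table, where Gbp7 leads with 17.4%.

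By chromosome, the 4 chromosome 5 genes summed to 783, 780 and 789 TPM in libraries 1, 2 and 3. The 4 chromosome 3 genes summed to 602, 614 and 612 TPM and the 2 chromosome 11 genes to 788, 762 and 779 TPM. These sums of chromosomes 5, 3 and 11 were 36.1%, 28.1% and 35.8% of the total. Irgm1 reaches to 48871683 and Igtp starts at 58199556, so the 2 chromosome 11 genes are not neighbours. Chromosome 5 over chromosome 3 gave a log2 ratio of 0.36 ± 0.02, and chromosome 11 over chromosome 5 one of -0.01 ± 0.02, which changed sign between libraries. In the smaller table chromosome 5 over chromosome 3 reversed to -0.59, and the 8 genes held there gave -0.17 ± 0.03 by TPM. The order of chromosomes 5 and 3 also reversed with protein-coding transcripts alone. Gbp6, Gbp4, Gbp9 and Gbp8 then had means of 151, 113, 78.8 and 52.4 TPM. Gbp7, Gbp3, Gbp2 and Gbp5 had 279, 156, 136 and 29.2 TPM, a larger sum.

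The share of a gene's level that fell on protein-coding transcripts differed between the chromosomes. For Igtp, Gbp2 and Gbp7 it was 100%, and for Gbp3 and Irgm1 99.8% ± 0.225 and 99.9% ± 0.0564. It was 37.8% ± 0.554 for Gbp4, 54.7% ± 0.559 for Gbp6, 59.0% ± 1.59 for Gbp8 and 65.5% ± 4.11 for Gbp9, and 76.6% ± 2.61 for Gbp5. By expected counts it was 18.4% for Gbp4, 42.6% for Gbp6, 62.5% for Gbp8, 55.4% for Gbp9 and 75.0% for Gbp5. All 4 chromosome 5 genes thus had a large non-coding share, and Gbp5 was the chromosome 3 gene that had one. The coding share over all genes was not determined. The widest range over libraries was that of Gbp9, with 69.6%, 65.6% and 61.4% in libraries 1, 2 and 3.

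**Figure D3:**
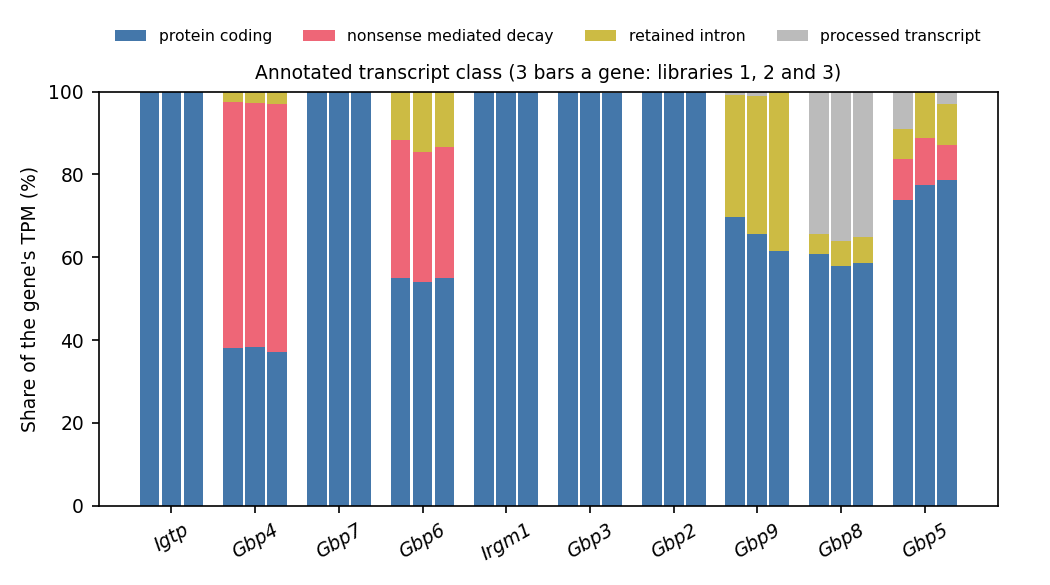
Share of each gene's TPM (vertical axis, %) on transcripts of each annotated class, with 3 bars a gene for libraries 1, 2 and 3. Gbp4 is 37.8% protein-coding on average and otherwise mostly on a transcript of the nonsense-mediated decay class, while Igtp, Gbp7, Irgm1, Gbp3 and Gbp2 are nearly all protein-coding.

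Gbp4 was the gene whose leading transcript was not annotated as coding for the full protein. Gbp4-202, of the class annotated for nonsense-mediated decay (the pathway that degrades messages with an early stop codon), held 59.5%, 59.0% and 60.0% of its TPM in libraries 1, 2 and 3. The full-length Gbp4-201 held 8.27%, 8.80% and 11.5%, and the short coding transcript Gbp4-203, of 709 bases, 24.0%, 22.1% and 21.2%. By expected counts, in which long transcripts weigh more, Gbp4-202 held 79.1% ± 1.49 and Gbp4-203 4.42% ± 0.375. The exons of Gbp4-201 and Gbp4-202 differ in 29 bases at the end of the second exon (chr5:105136810-105136838, minus strand), whose absence shifts the reading frame and leaves 309 coding bases of 1893. They are shown with 25 bases on either side, since the division of Gbp4 between these transcripts rests on them; capitals mark the 29 bases, which begin with the letters GT (GENCODE M21 transcripts, mm10, 5′ to 3′).
Gbp4-201: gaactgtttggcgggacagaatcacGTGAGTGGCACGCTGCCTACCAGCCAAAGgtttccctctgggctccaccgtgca
Gbp4-202: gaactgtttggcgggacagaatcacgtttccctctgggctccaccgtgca
Of 4489 different 50-base stretches in Gbp4-201, 76 are absent from Gbp4-202, and 47 of 4460 stretches in Gbp4-202 are absent from Gbp4-201. The effective length of Gbp2-201, 2467 of its 2516 bases, is the one that reads of 50 bases give, so reads over these few positions separate the transcripts.

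In the other genes with mixed classes, the leading transcript by TPM was protein-coding. Gbp6-201 held 55.0%, 54.0% and 55.0% in libraries 1, 2 and 3, and Gbp6-203, of the nonsense-mediated decay class and lacking a 128-base exon (chr5:105288927-105289054), held 33.3%, 31.4% and 31.7%. The retained intron transcript Gbp6-202 took 13.2% ± 1.44. Gbp8 was divided between Gbp8-201 (57.0% ± 2.01) and the processed transcript Gbp8-204 (35.2% ± 0.979), which has no annotated coding sequence. Gbp8-203, a retained intron transcript, held 5.75% ± 0.759.

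For Gbp9, the coding Gbp9-202 held 44.1% ± 1.02 and Gbp9-201 21.5% ± 5.06. The retained intron transcript Gbp9-203 held 29.5%, 33.3% and 38.6% in libraries 1, 2 and 3, and by expected counts it led with 44.5% ± 5.63. Gbp5-201 held 76.6% ± 2.61, with 9.92% ± 1.43 on Gbp5-202 (nonsense-mediated decay) and 9.44% ± 2.09 on Gbp5-205 (retained intron). PolyA selection was used in all 3 libraries, and the share of unspliced RNA in them was not tested.

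The remaining genes were divided among coding transcripts or held by 1. Gbp2-201 held 100% of Gbp2 in all 3 libraries. Igtp-201 held 85.5% ± 3.09 of Igtp, beside Igtp-202 (7.96% ± 1.74) and Igtp-203 (6.49% ± 1.35). Gbp7-202 held 72.4%, 68.4% and 66.7% of Gbp7 and the longer Gbp7-201 the rest; by expected counts they were level, at 49.7% ± 3.51 and 50.3% ± 3.51. Gbp3 was divided between Gbp3-202 (53.9% ± 4.54) and Gbp3-203 (44.4% ± 3.31). Irgm1 was divided between Irgm1-202 and Irgm1-201, of which Irgm1-202 led in libraries 1 and 3, with 52.4% and 54.5%, and Irgm1-201 in library 2, with 50.4%.

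The genes also differed in how much sequence they share with other genes. Expected counts more than 0.005 from a whole number mark shared reads: 9 of the 10 genes had them in at least 1 library, and Irgm1, with 7579, 7770 and 8722 counts, had none. Gbp5 had them in 2 libraries and the other 8 genes in all 3. The mark was not particular to these families. Foxp3, Il2ra, Irf1 and Psmb8 also had it in all 3 libraries, while Cd4, Lck, Ctla4 and Jak1 had it in none. Its share over all genes was not determined. The posterior SD of the count, a deposited column that gives the uncertainty left by read assignment, was 0 for Irgm1, at most 0.0143% of the count for Gbp5, and 0.0604% to 0.253% for Gbp2, Igtp, Gbp7, Gbp4, Gbp3 and Gbp9. It was highest for Gbp8, at 0.602% to 0.691%, and for Gbp6, at 0.924% to 1.31%. Even there it was smaller than the spread between libraries for Gbp6, whose CPM values had a coefficient of variation of 4.54%.

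**Figure D4:**
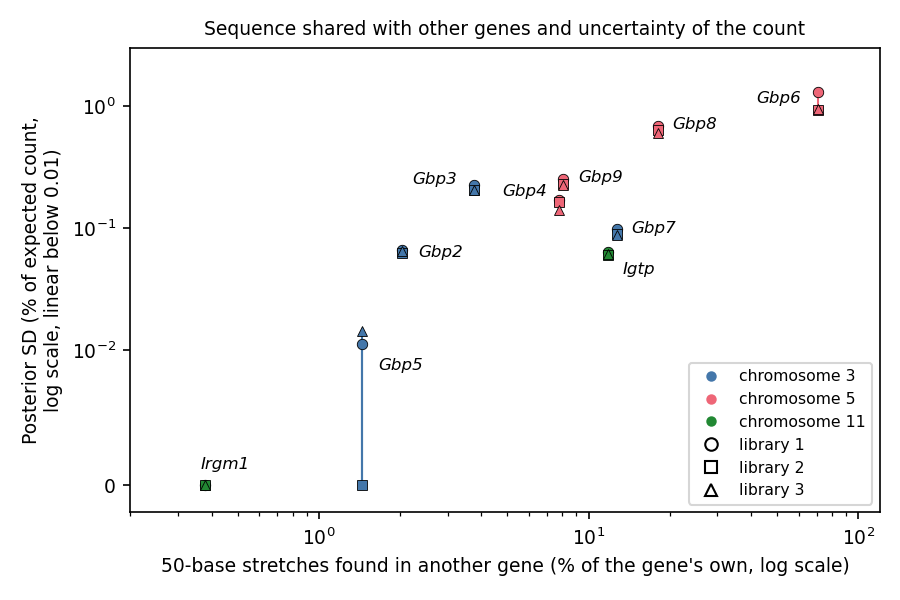
Posterior SD of each gene's count (vertical axis, % of the expected count, log scale that is linear below 0.01) against the share of its distinct 50-base stretches found in transcripts of another gene (horizontal axis, %, log scale), for libraries 1, 2 and 3. Gbp6 stands at the top right with 70.7% of its stretches shared, and Irgm1 at the bottom left with 0.379% and a posterior SD of 0.

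Gbp6 shared most of its sequence with other genes. Of its 6096 distinct 50-base stretches, 4307 (70.7%) occur on either strand in transcripts of another gene, 3961 of them in Gm43302 and 2801 in Gbp10. Gm43302 is an annotated protein-coding gene that runs across Gbp10 and Gbp6 (chromosome 5, 105214907 to 105293695) and overlaps the exons of Gbp6 by 1726 bases; Gbp10 is a separate copy. The coding sequences of Gbp6 and Gbp10 are both 1833 bases long and differ in 30 of them (98.4% identity), and the longest identical stretch is 421 bases. The 60 coding bases with the most differences, positions 1567 to 1626 of both, are shown because reads can be told apart there; capitals mark the 9 bases that differ (mm10, Gbp6 at chr5:105274211-105274270 and Gbp10 at chr5:105218411-105218470, minus strand).
Gbp6: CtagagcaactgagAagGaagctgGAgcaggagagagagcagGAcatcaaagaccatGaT
Gbp10: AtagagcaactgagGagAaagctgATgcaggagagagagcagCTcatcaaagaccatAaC

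The levels of these 3 genes were unequal all the same. Gbp10 had 90.2, 94.6 and 90.3 TPM and Gm43302 9.60, 8.59 and 11.7 TPM, against the 265 to 285 TPM of Gbp6. Gbp6 alone had 537, 576 and 586 CPM in libraries 1, 2 and 3. Gbp6 plus Gbp10 had 650, 697 and 701 CPM, and with Gm43302 added 675, 720 and 733 CPM. Library 3 over library 1 gave 0.12 log2 units for Gbp6 alone and 0.12 for the 3 genes together. Gbp6 also shares stretches with Gbp4 (239), Gbp11 (208), Gbp8 (186) and Gbp9 (153), and the part of read assignment in the library difference was not tested.

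The other members shared less. Gbp8 shared 18.1% of its stretches, Gbp7 12.7%, Igtp 11.8%, Gbp9 8.05% and Gbp4 7.78%, and Gbp3, Gbp2, Gbp5 and Irgm1 3.75%, 2.03%, 1.44% and 0.379%. Of the 715 shared stretches of Gbp7, 588 occur in Gm43802 and 126 in Gbp3. Gm43802 is annotated as a processed pseudogene that overlaps the exons of Gbp7 by 637 bases, and it had 0 counts in every library. Gbp4-201, Gbp8-201 and Gbp9-202 are annotated with a common stretch of 60 bases in their first exon (chr5:105139480-105139539), so that exon cannot assign a read to 1 of the 3 genes. Coding identity among Gbp4, Gbp6, Gbp8 and Gbp9 was 89.9% to 93.0% of aligned bases, with Gbp4 and Gbp8 the closest pair. On chromosome 3 the closest members were Gbp3 and Gbp7 at 78.9%, and Gbp2 was closest to its neighbour Gbp2b at 82.5%.

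Igtp shared all of its 243 common stretches with Irgm2, the next gene on the chromosome, which encodes another regulator of the Irgm kind. Igtp-201 and Irgm2-201 are annotated with 162 common bases in their first exon (chr11:58199618-58199779), although their coding sequences were 73.6% identical. The posterior SD was equal in both genes in each library, at 14.45, 14.19 and 16.68 counts, as it was for Gbp2 and Gbp2b at 4.330, 4.410 and 4.970. Irgm2 had 79.0, 72.3 and 89.3 TPM. Together Igtp and Irgm2 had 891, 880 and 928 CPM, against 723, 722 and 736 CPM for Igtp alone.

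Upstream sequence was compared for the 6 members with a window in the RefSeq promoter table, Gbp2, Gbp3, Gbp5, Gbp7, Igtp and Irgm1; each window runs from 250 bases before to 50 after an annotated start. The motif GAAANNGAAA, the core of the element bound by interferon regulatory factors, was searched on both strands. It occurred in 6 of their 7 windows, 1 for each gene and not in the second window of Gbp3, against 3.44% of 32851 windows. TTCNNNGAA, the palindromic core of gamma-activated sites, occurred in Gbp5, Gbp7 and Igtp, against 8.30% of windows, and both motifs together in those 3, against 0.454% of windows. A match describes letters and does not show binding. The stretches are shown because this is sequence that genes of separate clusters share; capitals mark the matches, which can overlap each other (GRCm38.p6, 5′ to 3′ on the strand of the gene).
Gbp2, chr3:142620594-142620623: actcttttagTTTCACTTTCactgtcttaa
Gbp3, chr3:142559994-142560025: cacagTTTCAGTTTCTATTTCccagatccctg
Gbp5, chr3:142496764-142496899: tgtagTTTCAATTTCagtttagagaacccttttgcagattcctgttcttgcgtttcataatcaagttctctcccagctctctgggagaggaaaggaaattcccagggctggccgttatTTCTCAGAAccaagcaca
Gbp7, chr3:142530216-142530335: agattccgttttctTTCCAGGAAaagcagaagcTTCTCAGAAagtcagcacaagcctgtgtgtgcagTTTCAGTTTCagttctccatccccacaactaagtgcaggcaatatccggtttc
Igtp, chr11:58199506-58199555: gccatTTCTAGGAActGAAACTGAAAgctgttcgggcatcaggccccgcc
Irgm1, chr11:48871421-48871460, minus strand: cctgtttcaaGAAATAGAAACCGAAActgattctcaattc

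GAAANNGAAA began 34 bases before the RefSeq start in Igtp, 30 and 24 in Irgm1, 45 and 39 in Gbp3, 53 in Gbp7 and 59 in Gbp2, and 165 in Gbp5. In 3 of the 6 genes the match falls downstream of the GENCODE gene start, which lies farther upstream than the RefSeq start. The Gbp2 match lies 2 bases downstream, in the first exon of Gbp2-201, the Irgm1 matches 233 and 239 bases downstream, in an exon of Irgm1-203, and the Gbp5 match 2791 bases downstream, in no annotated exon of Gbp5. Among related GTPase genes, 7 of the 11 with a window held GAAANNGAAA, and Ifi47, Irgq, 9930111J21Rik2 and Gm5431 did not.

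The libraries differed in read counts beyond counting noise for most members, as for most genes. In a chi-square test of equal shares over the 3 libraries, adjusted with Benjamini-Hochberg over 15945 genes, 7 of the 10 members passed 0.05, where 65.8% of all genes tested did. The strongest was Gbp6, with 537, 576 and 586 CPM in libraries 1, 2 and 3 (chi-square test, adjusted p = 4.02e-16), and Gbp5 was next with 65.2, 82.0 and 73.5 CPM (chi-square test, adjusted p = 5.80e-13). Library 1 was lowest by CPM for both, and also for Gbp7 and Gbp3. By TPM, Gbp7 was lowest in library 2 (279, 276 and 281 TPM), whereas Gbp6, Gbp5 and Gbp3 were again lowest in library 1. Gbp8, Igtp and Irgm1 did not pass (chi-square test, adjusted p = 0.0931, 0.0939 and 0.220). Igtp passed, and Gbp2 did not, with edgeR's TMM sizes (chi-square test, adjusted p = 0.00728 and 0.0771) and with DESeq2's size factors (0.0107 and 0.0680). With no count filter 6 of the 10 passed, where 41.7% of all genes did, and without library 1, 4 of the 10, where 48.6% of all genes did. Without library 2 or library 3, 5 of the 10 passed, where 41.1% and 45.0% of all genes did. With the statistic divided by 8.61, the overdispersion common to all genes, 0 of the 10 passed, where 1.85% of all genes did; 3 of the 10 (Gbp6, Gbp5 and Gbp7) then had an unadjusted p under 0.05 in the chi-square test, as did 10.3% of all genes.

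The sizes of these differences were small. Taking counting noise off, the coefficient of variation over libraries was 0.805% for Igtp, 0.933% for Irgm1 and 1.93% to 4.49% for Gbp8, Gbp2, Gbp9, Gbp4, Gbp7, Gbp3 and Gbp6. Gbp5 was the exception with 11.3%. The gene-wise biological coefficient of variation from edgeR was 8.37% for Gbp5 and 4.35% to 5.35% for the other 9 members, against a median of 6.68% over the 6387 genes that averaged at least 1000 counts. Library 1, in which Gbp5, Gbp6, Gbp7 and Gbp3 had their lowest CPM, had the highest sums of haemoglobin, granulocyte and B cell markers. Sums of dendritic cell markers and of CD8 T and NK cell markers (25.6, 24.1 and 23.2 TPM) were highest there too. So were those of the T cell list (6176, 6136 and 6170 TPM) and, narrowly, of macrophage and monocyte markers (63.0, 61.1 and 62.4 TPM). Among the latter, Lyz2 was lowest in library 1 (21.1, 21.6 and 31.8 TPM), and Cd68 and Csf1r were highest in library 2. C1qa, C1qb, C1qc, Adgre1 and Cd14 were highest in library 1. In the other lists named here, Ms4a1, Xcr1, Cd3d and, narrowly, Ly6g were highest in library 3, and Siglech, Klrb1c and Lck in library 2. The Treg list had its highest sum in library 3 (3044, 3011 and 3106 TPM). Stromal markers (Col1a1, Col1a2 and Pdgfrb) had theirs in library 2 (0.620, 1.24 and 0.620 TPM). The part of other cells in the library differences was not tested. In the smaller table, 1 of the 8 members present passed the chi-square test (Igtp, adjusted p = 0.0208), where 33.5% of all genes did.

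The related GTPase genes of the same families were mostly expressed too. Of 19 listed, 17 reached 1 TPM in all 3 libraries, with a median of 80.2 TPM and a sum of 1914 ± 17.1 TPM, against the members' 2169 ± 13.1 TPM. The effector IRG genes were highest: Ifi47 had 478 ± 4.36, Tgtp2 291 ± 6.37, Iigp1, which acts on the vacuole of Toxoplasma, 228 ± 9.06 and Tgtp1 187 ± 10.6 TPM. 9930111J21Rik1 (141 ± 8.25), Gm12250 (127 ± 1.57), annotated as a processed pseudogene, the giant GTPase gene Gvin1 (119 ± 3.45) and 9930111J21Rik2 (86.7 ± 6.48) followed. Tgtp1 and Tgtp2 had expected counts that mark shared reads in all 3 libraries. The smaller table held 274 and 253 counts for them in library 1 against 7953 and 15449 expected counts. Their posterior SDs were 2.36%, 2.34% and 2.21% of the count for Tgtp1 and 1.22%, 1.20% and 1.23% for Tgtp2, so their split is uncertain. The same limit holds for Gvin1, with 92 counts in the smaller table against 21078, and a posterior SD of 3.99%, 3.83% and 3.47% of the count. It also holds for 9930111J21Rik1 and 9930111J21Rik2, with 376 and 405 counts there against 10369 and 8502. Both had posterior SDs of 139, 138 and 134 counts.

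Copies of the members themselves covered a wide range. Gbp10 had 91.7 ± 2.51, Irgm2 80.2 ± 8.55 and Gbp2b 22.1 ± 0.476 TPM, while Gbp11, annotated as a polymorphic pseudogene, had 0.480, 1.10 and 0.510 TPM. F830016B08Rik (22.5 ± 2.88), Gm4951 (14.6 ± 2.51), Gm4841 (14.0 ± 1.12), Gm12185 (4.76 ± 0.718), Irgq (3.87 ± 0.803) and Gm5431 (1.38 ± 0.488) were low. Irgc1, known from the testis, had 12, 0 and 3 counts. Gbp6 stood above Gbp10, Igtp above Irgm2 and Gbp2 above Gbp2b in all 3 libraries. Gbp8, whose coding sequence is 91.9% identical to that of Gbp10 over aligned bases, stood above Gbp10 in library 1 and below it in libraries 2 and 3.

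**Figure D5:**
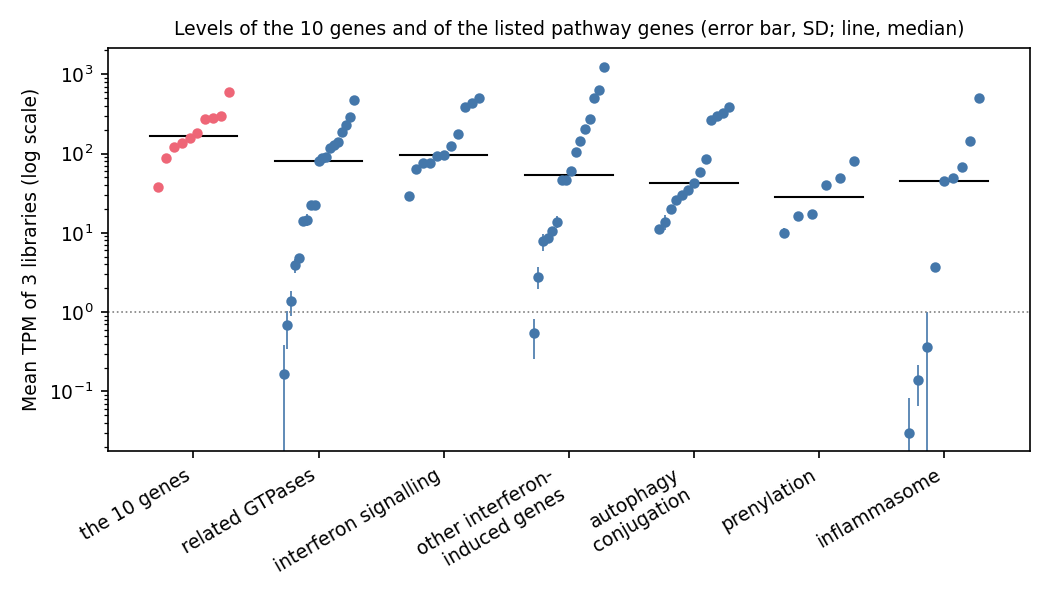
Mean TPM over 3 libraries (vertical axis, log scale) of the 10 genes and of each listed gene group, with the SD as an error bar and a line at each group's median; the dotted line marks 1 TPM. The 10 genes lie between 38.1 and 597 TPM, and genes under 1 TPM occur among the related GTPases, the other interferon-induced genes and the inflammasome genes.

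Genes of the pathway that induces the members were all detected. The 11 interferon signalling genes reported stood above 1 TPM in all 3 libraries, with a median of 95.9 TPM. The interferon gamma receptor chain Ifngr1 stood at 506 ± 4.03 and the kinase Jak1 at 436 ± 14.0 TPM. The transcription factor gene Irf1 had 400, 386 and 366 TPM, below Igtp and above Gbp4 in every library, while the other receptor chain, Ifngr2, was the lowest of the list at 28.9 ± 3.14 TPM.

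Other interferon-induced genes covered a wider range, with 15 of 16 detected and a median of 53.2 TPM. The immunoproteasome genes Psmb8 (1243 ± 23.8) and Psmb9 (626 ± 32.3) and the peptide transporter gene Tap1 (497 ± 16.5 TPM) led them, and the chemokine gene Cxcl9 was lowest at 0.540 ± 0.282 TPM. Psmb8 and Psmb9 stood above Igtp, and Tap1 between Igtp and Gbp4.

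Genes of the processes in which GBPs and IRGs act were detected as well. All 13 autophagy conjugation genes, whose products place IRGs and GBPs on vacuoles in mice, were detected with a median of 42.4 TPM. The ubiquitin-like modifiers Gabarap (385 ± 7.87) and Map1lc3b (300 ± 4.38) and the cargo receptor Sqstm1 (320 ± 10.2) led, and Map1lc3a was lowest at 11.1 ± 1.33 TPM. All 6 prenylation genes were detected with a median of 28.6 TPM, from Fnta (80.4 ± 7.13), a subunit of both prenyl transferases, through the processing enzymes Rce1 (48.5 ± 2.43) and Zmpste24 (40.1 ± 3.05), to Fntb, at 11.4, 8.51 and 10.2 TPM in libraries 1, 2 and 3.

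Of 9 inflammasome genes 6 were detected. The adaptor gene Pycard (497 ± 32.6), the pore protein gene Gsdmd (144 ± 14.0) and Casp1 (66.9 ± 0.282 TPM) were highest. Nlrp3, the sensor with which Gbp5 has been studied, was lowest, with 2, 0 and 0 counts in libraries 1, 2 and 3.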

How the data were processed

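PolyA RNA-seq libraries, 3 technical replicates of 1 biosample, were analysed from tables the authors deposited for mm10. Per the file headers, the larger gene and transcript tables (GENCODE M21) give expected counts and TPM per gene or transcript, together with a posterior SD of the count, and the smaller gene table (GENCODE M4) gives whole-number counts deposited from a separate alignment. The sources used here do not give the aligner, the quantification program or the use of strand, so overlapping genes may take each other's reads. Identifiers were matched to GENCODE M21 (55536 of 81881 rows); the other rows held 0.125% to 0.182% of counts and were left out. A gene was detected with at least 1 TPM in all 3 libraries. Expected counts were rounded for the chi-square test (2 degrees of freedom, summed count of at least 30), which was tested on simulated data. edgeR 4.0.16 (TMM, gene-wise dispersion) and DESeq2 1.42.0 (size factors) gave alternatives; Python 3.11.15, scipy 1.17.1, Biopython 1.88 and R 4.3.3 were used. Shared stretches were counted over the GENCODE M21 transcripts with a length of 50 bases, and coding sequences were aligned globally. Promoter windows came from RefSeq (GRCm38.p6). Named genes were the 10 members, every related GTPase, the 3 highest and the lowest gene of each other list, and transcripts with at least 5% of a member's TPM. Of the interferon signalling list, 1 gene is not reported here. Members and lists were chosen with earlier results of these data known. The reads carry no molecular identifiers and are not independent molecules, so the chi-square test covers counting error only.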

Additional observations from a re-analysis of the deposited data

How the results depend on the processing

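Alternatives kept the number of detected members at 10 (at 0.1 and 10 TPM and without any 1 library) and the number of genes with shared reads at 8 to 9. The share of Igtp in the members' level was 27.5%, and became 19.6% by CPM, 33.7% by protein-coding transcripts alone and 12.4% in the smaller table. The chromosome 5 over 3 ratio of 0.36 became 0.50 by CPM and -0.59 in the smaller table. With protein-coding transcripts alone, the chromosome 3 genes also had the larger sum. Of 6 neighbour pairs present in the smaller table, 3 kept their order beyond the spread, against 8 of 9 by TPM. Log2 ratios that reversed by CPM were Gbp2/Gbp9 (-0.44) and Irgm1/Gbp3 (-0.10). In the smaller table Igtp/Gbp4 (-0.19), Gbp4/Gbp7 (-0.31) and Irgm1/Gbp3 (-0.43) reversed. Gbp7/Gbp6 gave -0.01 to 0.04 with 1 library left out, and reversed without library 1. By CPM, Gbp4/Gbp7 fell within its spread at 0.08 and Gbp7/Gbp6 exceeded it at 0.08. With protein-coding transcripts alone, mean Gbp4 (113 TPM) fell below Gbp7 (279 TPM) and mean Gbp6 (151 TPM) below Irgm1 (179 TPM). The other neighbour pairs kept the order of their means. The members that varied between libraries, 7 in all, became 0 after division by the shared overdispersion, 1 in the smaller table, 6 with no count filter, and 4 to 5 with 1 library left out; the share of all genes that passed was 65.8%, and became 1.85%, 33.5%, 41.7% and 41.1% to 48.6% under the same settings. Leading transcripts were protein-coding for 9 members by TPM and 8 by expected counts, and the share over all genes was not determined. The cause of these changes was not tested. No paired analysis was possible because the libraries form 1 group. With 1 biosample, no value here measures biological spread, and the smaller table lacks Gbp5 and Gbp6.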
